A study of Homo sapiens with 20 samples.

Results

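The genes described here encode enzymes of heme synthesis and the carrier that brings glycine to the pathway. They are SLC25A38, ALAS1, ALAS2, ALAD, UROS, UROD, CPOX, PPOX and FECH, 9 of the 46425 gene symbols in the tables. They were chosen by symbol for their place in the pathway, and the counts of all transcripts of a symbol were summed. All 9 had reads in every library, from 482 counts (ALAS1 on D12) to 143092 counts (ALAS2), and all 9 passed the filter on low counts.

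HUDEP-2 is an immortalized erythroid progenitor line from human umbilical cord blood, labelled wild type here, whose growth depends on a doxycycline-induced transgene. D0 cells came from expansion culture in StemSpan SFEM with EPO (erythropoietin), SCF (stem cell factor) and doxycycline, to which the study's methods add dexamethasone. D1 to D8 and D12 cells were kept for that many days in IMDM with holo-transferrin, AB serum, heparin, insulin, glutamine, EPO, SCF and doxycycline, with SCF left out from D6 and doxycycline from D8. Each of the 10 days had 2 poly(A)-selected, stranded RNA-seq libraries with 52131713 to 70358198 counts, 20 libraries in all. For D0 the tables hold 3 sets of columns against 2 labelled samples, and nothing in them says which match the labels. The D0 columns of the table that spans all days and of the table in which D0 opens the separate days were used, and the differing D0 columns in the table with D12 of set A were not. This choice is uncertain, and D0 is the baseline of every comparison with it. Library set A comes from the 3 tables that cover separate days and set B from the table that spans all days. The libraries are named biological replicates, but separate cultures are not described, so p-values measure the spread between these libraries, which may be partly technical.

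All 11 erythroid markers were expressed, and their summed level rose from 28080 and 30090 TPM on D0 to 244200 and 209500 TPM on D8 (set A first, then set B, here and below). HBB carried most of this sum, at 18580 and 22120 TPM on D0 and 172000 and 151200 TPM on D8. Other markers varied, with GATA1 going from 209 and 217 to 273 and 280 TPM, and SLC4A1 from 17.4 and 24.9 to 2197 and 1770 TPM. TPM is a transcript level scaled for transcript length and for the library total. Granulocyte and lymphocyte markers summed to less than 1 TPM in every library, and PF4, PPBP, GP1BA, ELANE, CD3E and MS4A1 had no counts in any library. The megakaryocyte list, which holds PF4, PPBP and GP1BA, was carried by ITGA2B. This gene was at 68.9 and 10.7 TPM on D0 and 0.292 and 0.140 TPM on D8. The mast cell list was carried by TPSAB1, a mast cell tryptase, at 1009 and 527 TPM on D0 and 3.10 and 0.598 TPM on D8. The epithelial list was carried by EPCAM, at 248.9 and 252.7 TPM on D0 and 36.7 and 119 TPM on D8, with KRT8 and KRT18 at 1.65 TPM or less in every library. The D7 and D8 libraries of set A stood apart, with 17.6% and 16.8% of their counts on ribosomal RNA genes against 0.737% to 2.68% in the other libraries. Globin genes took 0.859% and 0.819% of counts on D0 and 28.2% and 33.7% on D12.

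Heme synthesis starts in mitochondria, where 5-aminolevulinate synthase joins glycine and succinyl-CoA. ALAS1 is the form found in all tissues, whose amount falls when heme is plentiful, and ALAS2 is the erythroid form, whose translation is held back by iron regulatory proteins when iron is short. SLC25A38 is the mitochondrial carrier that imports glycine. ALAD works in the cytosol on the product of ALAS, UROS closes the tetrapyrrole ring, UROD and then CPOX shorten its side chains by decarboxylation, PPOX oxidizes the ring in mitochondria, and FECH inserts iron. In hg38, as the tables give them, SLC25A38 lies at chr3:39383353-39397351, ALAS1 at chr3:52198083-52214327, ALAS2 at chrX:55009055-55030977 and ALAD at chr9:113386312-113401338. UROS lies at chr10:125784980-125823280, UROD at chr1:45012254-45015575, CPOX at chr3:98569837-98593684, PPOX at chr1:161165824-161178277 and FECH at chr18:57544377-57586708. Inherited loss of ALAS2 or SLC25A38 function causes sideroblastic anemia, and loss of later enzymes causes porphyrias.

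The sequences before the starts of the ALAS genes are shown because these genes went in opposite directions. Each is the 250 bases before the start in RefSeq (GRCh38.p14), read 5′ to 3′ on the gene's strand. The ALAS2 sequence is from chrX:55030978-55031227 (minus strand), and the ALAS1 sequence is from chr3:52197833-52198082 (plus strand). Capitals mark 3 kinds of letters on either strand. GATAA is the core of sites bound by GATA factors, CCACCC is the core for KLF-type factors, and TGAGTCA is the core for AP-1 and NF-E2.
ALAS2: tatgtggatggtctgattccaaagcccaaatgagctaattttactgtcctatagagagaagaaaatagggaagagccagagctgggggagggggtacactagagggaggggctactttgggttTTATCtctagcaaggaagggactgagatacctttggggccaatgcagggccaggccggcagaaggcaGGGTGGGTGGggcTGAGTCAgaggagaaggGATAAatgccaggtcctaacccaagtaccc
ALAS1: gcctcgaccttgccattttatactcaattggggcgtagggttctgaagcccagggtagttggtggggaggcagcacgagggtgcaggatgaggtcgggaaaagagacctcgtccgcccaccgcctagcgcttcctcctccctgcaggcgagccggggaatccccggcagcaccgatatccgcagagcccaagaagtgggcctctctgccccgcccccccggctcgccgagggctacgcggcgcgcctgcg

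The ALAS2 window held GATAA 2 times, starting 127 and 30 bases before the gene, CCACCC 2 times in overlapping runs, and TGAGTCA 1 time, while none of these runs was found in the ALAS1 window. Of all 35116 promoter windows of that length, 20.4% held GATAA, 31.3% held CCACCC and 4.2% held TGAGTCA. Among the other members CPOX held GATAA 2 times and PPOX 1 time in the later of its windows, SLC25A38 and PPOX each held CCACCC 1 time, and ALAD, FECH and UROD held none of the 3. UROS had no entry in the promoter table. A match of letters is a description and not evidence of binding.

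ALAS2 mRNA also starts with the stem loop that iron regulatory proteins bind, shown because it sets a layer of control that mRNA levels do not measure. Of 9 ALAS2 transcripts in GENCODE, 8 carry it within the first exon, in the 5′ UTR, at chrX:55030942-55030969 (hg38, minus strand). Capitals mark the loop, and the 5 bases on either side of it can pair.
ALAS2 stem loop: ttcgttcgtcctCAGTGCagggcaacag

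**Figure D1:**
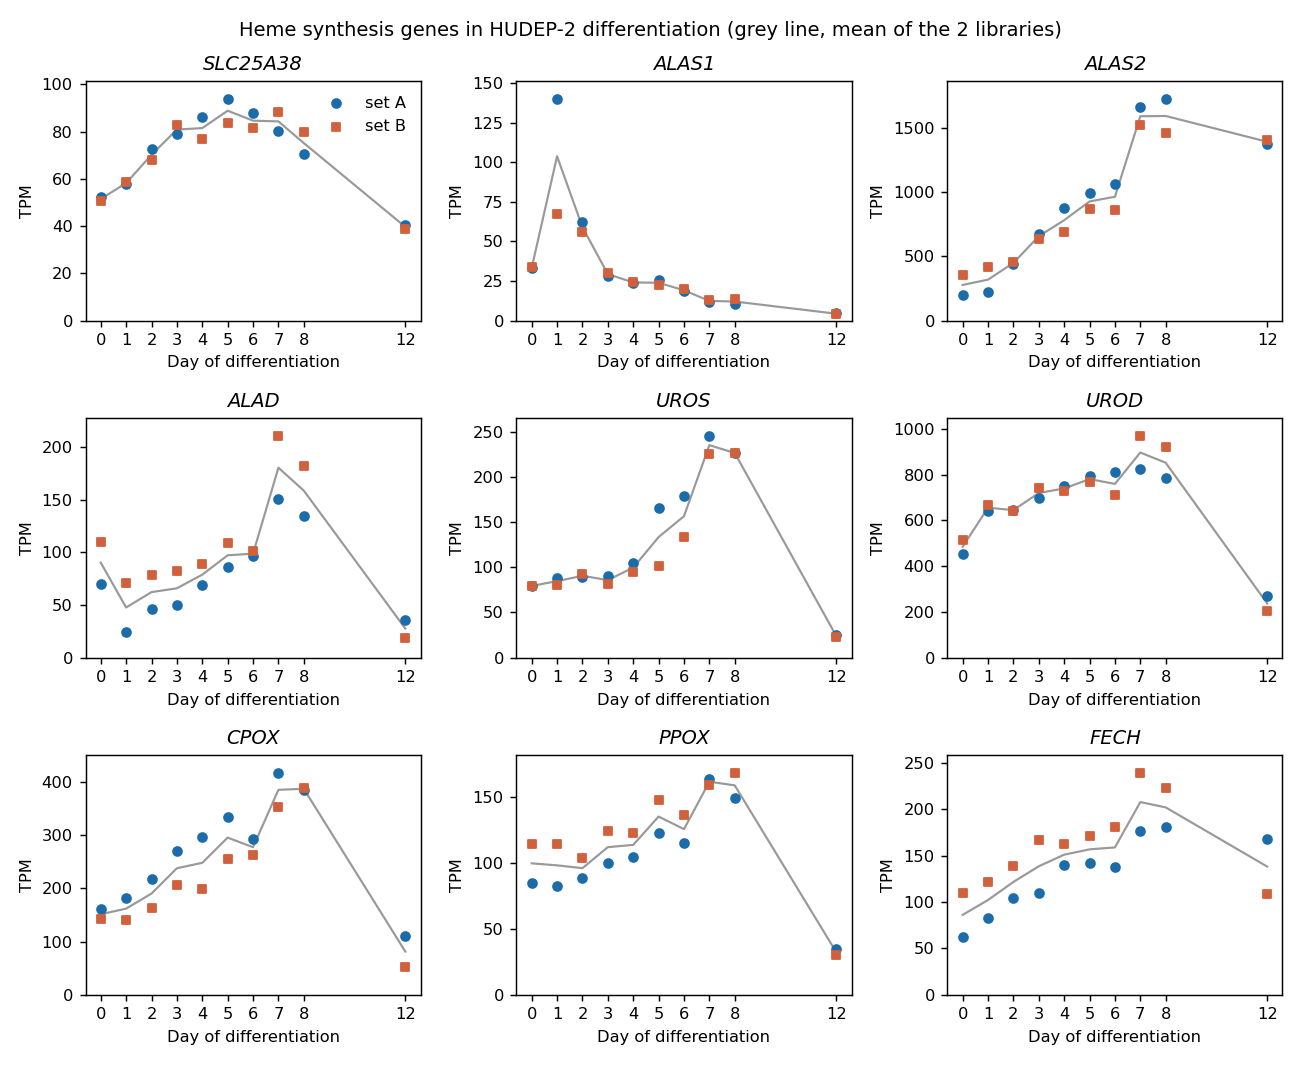
Level of each gene in TPM (vertical axes, starting at 0, a scale per gene) against day of differentiation, with circles for set A, squares for set B and a grey line through the mean of the 2 libraries. ALAS1 peaked on D1, ALAS2 and most later enzymes rose to D7 or D8, and UROS, UROD, CPOX, PPOX and ALAD had their lowest or near lowest TPM on D12.

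Across the course ALAS2 and ALAS1 diverged. ALAS2 was at 202 and 351 TPM on D0, 872 and 689 TPM on D4, 1724 and 1457 TPM on D8, and 1376 and 1404 TPM on D12. The D0 libraries thus differed by more than 1.5 times from each other, but both lay below both libraries of every day from D2 onward. ALAS1 was at 32.9 and 33.5 TPM on D0, rose to 140.0 and 67.4 TPM on D1, fell to 62.4 and 55.6 TPM on D2 and 28.3 and 30.3 TPM on D3, and reached 10.3 and 13.7 TPM on D8 and 4.64 and 3.96 TPM on D12. Both libraries were high on D1 and on D2, and from D3 onward both were below the D0 pair. ALAS2 was already the more abundant form on D0, so the levels did not cross on any of the 10 days sampled.

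The ratio of ALAS2 to ALAS1 TPM within a library made the divergence plain. It was 6.15 and 10.5 on D0, 1.58 and 6.16 on D1, 7.06 and 8.19 on D2, 23.8 and 21.0 on D3, 36.8 and 28.2 on D4, 57.4 and 43.8 on D6, 168 and 106 on D8, and 296 and 355 on D12. The ratio was lowest on D1 in both sets, and from D3 onward both values were above both of D0. The mean was 8.31 ± 3.06 on D0, 137 ± 43.7 on D8 and 326 ± 41.2 on D12 (SD, n = 2). No test was made of this ratio.

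**Figure D2:**
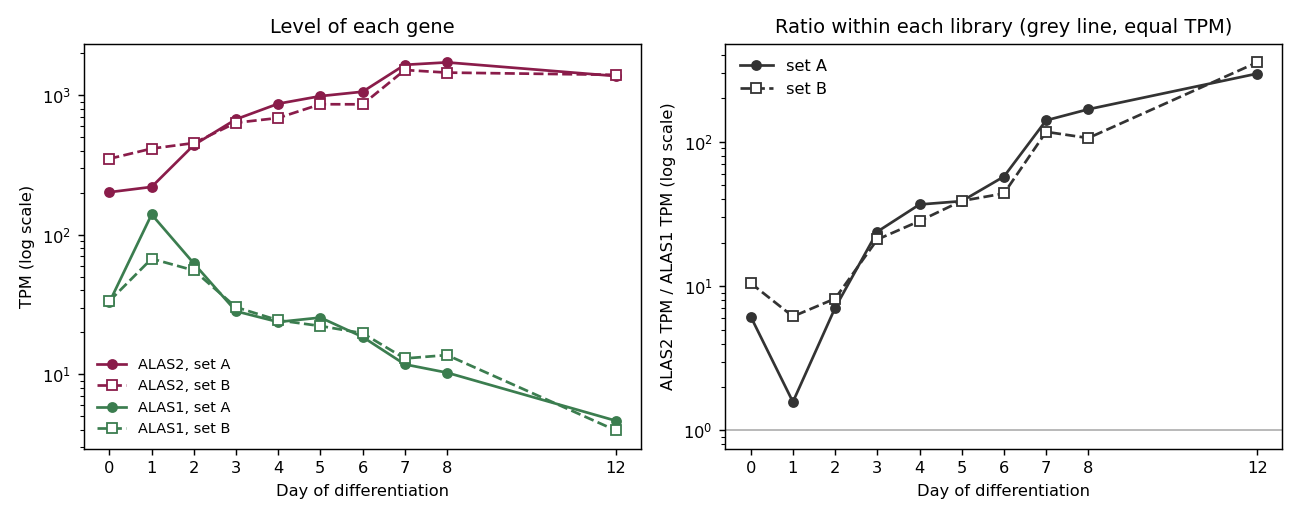
Left, TPM of ALAS2 and ALAS1 (log scale) against day, and right, the ratio of their TPM within each library (log scale), with filled circles and solid lines for set A and open squares and dashed lines for set B. ALAS2 stayed above ALAS1 on every day, with the closest approach on D1, at a ratio of 1.58 in set A.

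Days were compared on counts normalized by TMM (trimmed mean of M-values, which scales libraries so that most genes do not change), with edgeR's quasi-likelihood test over 16784 genes. A gene was called at a Benjamini-Hochberg adjusted p under 0.05. On D1 ALAS1 was the only member called, with a log2 fold change of 1.75 (SE 0.262, adjusted p = 0.0115), when 0.262% of all genes were called higher. The change was 2.20 in set A and 1.07 in set B. The call was lost without the D0 library of set A (adjusted p = 0.202) or of set B (adjusted p = 0.0763), and with only the D0 and D1 libraries in the fit (adjusted p = 0.437). Without the D1 library of set A the value was 1.05, and without that of set B it was 2.23, with the call kept in both. TPSAB1 (1390 and 510 TPM), ITGA2B (69.8 and 7.43 TPM) and CD68 (30.6 and 14.9 TPM) were also at their highest of the 20 libraries on D1 in set A, and their part in the result was not tested. ALAD, which follows ALAS in the pathway, went from 70.3 and 110 TPM on D0 to 24.4 and 70.8 TPM on D1, which was below D0 in both sets but was not called (log2 fold change -0.86, adjusted p = 0.526).

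On D2 no member was called by edgeR's quasi-likelihood test, with 0.411% of all genes called higher. With library set (A against B) as a block, that fit did call members. At an unadjusted p under 0.05 there were 5 members, beside 1554 of all 16784 genes. DESeq2 called 3 (ALAS1, UROD and SLC25A38), edgeR's exact test 1 and limma on log2(TPM + 1) 1. The shares of all genes called by these tests and with the block are not given here.

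After the rise of ALAS1 on D1, the erythroid synthase, the glycine carrier and UROD were called higher on D3. On that day ALAS2 (log2 fold change 1.36, SE 0.301), SLC25A38 (0.75, SE 0.143) and UROD (0.67, SE 0.123) were called higher, when 1.95% of all genes were. FECH (0.82, SE 0.264, adjusted p = 0.124) and CPOX (0.75, SE 0.300, adjusted p = 0.231) had values as large as those of SLC25A38 and UROD, with larger errors, and were not called. The same 3 genes were called on D4, when 2.93% of all genes were called higher, and FECH (0.95, adjusted p = 0.056) and CPOX (0.85, adjusted p = 0.132) did not pass. With library set (A against B) as a block in the fit FECH, CPOX, UROS and PPOX passed too on D4, which made 7. The 2.93% belongs to the fit without the block, and the share of all genes called with it is not given here. By D5, with 4.85% of genes called higher, UROS (0.75), CPOX (1.10), PPOX (0.64) and FECH (1.04) had joined them, which made 7 members. The same 7 were called on D6, beside 5.59% of all genes. The D3 calls are fragile, since leaving out the D0 or the D3 library of set A, or the D3 library of set B, left none. Without the D0 library of set A, 1 member was called on D4, 3 on D5 and 4 on D6. Without the same day's library of set A, 1 was called on D4, 4 on D5 and 3 on D6. Without that of set B, 4 were called on D5 and on D6.

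**Figure D3:**
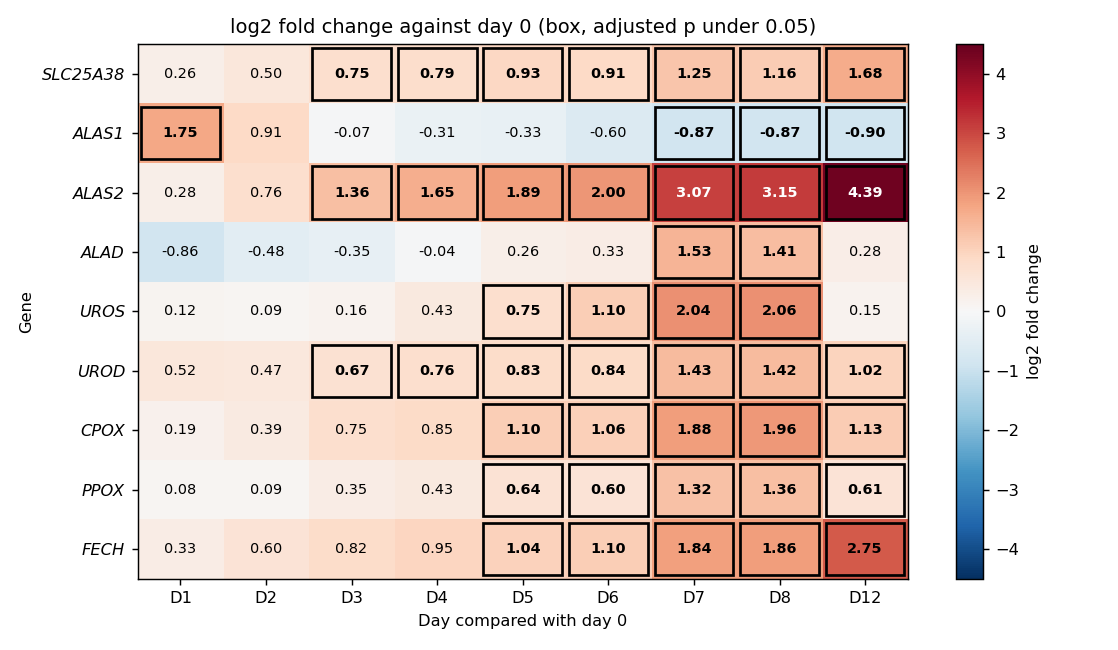
log2 fold change of each gene (rows) on each day against D0 (columns), from TMM-normalized counts, with red for higher and blue for lower. Boxes mark an adjusted p under 0.05 in edgeR's quasi-likelihood test, which ALAS1 had on D1 as a rise and from D7 as a fall.

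On D7 all 9 members were called against D0. The 8 genes other than ALAS1 were higher, ALAD included (1.53, SE 0.390, adjusted p = 0.00840), and ALAS1 was lower (-0.87, SE 0.258, adjusted p = 0.0188). On that day 16.8% of all genes were called higher and 18.4% lower. In set A D7 and D8 come from another table than D0, and table and day cannot be told apart there. ALAS1 lost its D7 call when any single D0 or D7 library was left out (adjusted p = 0.0595 to 0.0962), and ALAD lost its D7 call without the D0 library of set A (adjusted p = 0.0866) and with limma on log2(TPM + 1) (adjusted p = 0.0931). The calls on D8 were the same, with 17.7% of all genes higher and 19.4% lower. On D8 the log2 fold changes were 3.15 for ALAS2 (SE 0.320, adjusted p = 1.25e-05), 2.06 for UROS (SE 0.203), 1.96 for CPOX (SE 0.309), 1.86 for FECH (SE 0.271), 1.42 for UROD (SE 0.125), 1.41 for ALAD (SE 0.388), 1.36 for PPOX (SE 0.147) and 1.16 for SLC25A38 (SE 0.144). ALAS1 stood at -0.87 (SE 0.258, adjusted p = 0.0180). The median of the 9 was 1.42, and that of all genes tested was 0. Without the D7 and D8 libraries of set A, which were rich in ribosomal RNA, the 8 rises on D8 kept their calls, from 1.13 for SLC25A38 to 2.89 for ALAS2. ALAS1 lost its call (-0.78, adjusted p = 0.135). ALAS1 also lost it without the D0 library of set A (adjusted p = 0.0743), without that of set B (adjusted p = 0.0570) or without the D8 library of set A (adjusted p = 0.112), and ALAD without the D0 library of set A (adjusted p = 0.113). On log2(TPM + 1), where the median of all genes was -0.34, limma kept the direction of all 9 and lost the call of ALAD (0.83, adjusted p = 0.160).

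The members after the ALAS step differed in how their rises were spread over the days. UROS, which closes the ring, was at 79.1 and 79.6 TPM on D0, 105 and 94.4 TPM on D4, and 227 and 226 TPM on D8. The gain in UROS came mainly after D4. UROD was at 454 and 515 TPM on D0, 752 and 727 TPM on D4, and 784 and 920 TPM on D8. In TMM-normalized counts UROD went from 226 and 243 CPM to 402 and 389.8 CPM and then 637 and 616 CPM, and its log2 fold change against D0 was 0.76 on D4 and 1.42 on D8. CPOX was at 160 and 142 TPM on D0, 297 and 198 TPM on D4, and 385 and 388 TPM on D8. Its libraries were far apart on D4 and close together on D8. PPOX, the next oxidase, was at 85.0 and 114 TPM on D0, 104 and 123 TPM on D4, and 149 and 168 TPM on D8. PPOX groups of D0 and D4 overlapped, whereas those of D0 and D8 did not. FECH was at 62.5 and 110 TPM on D0, 140 and 162 TPM on D4, and 181 and 223 TPM on D8. Set B was the higher of the FECH pair on each of these days, with no overlap between D0, D4 and D8. ALAD was at 69.0 and 88.5 TPM on D4, overlapping D0, and at 135 and 182 TPM on D8. SLC25A38 was at 52.4 and 50.6 TPM on D0, 86.0 and 77.0 TPM on D4, and 70.4 and 79.8 TPM on D8. In TPM the D4 and D8 groups of the glycine carrier overlapped, while its TMM-normalized counts rose from 80.1 and 71.4 CPM (counts scaled to a common library size) on D4 to 101 and 94.3 CPM on D8.

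The days on which members were first called were not ordered as the pathway is, but differences in onset between members were not tested. By first day called in the direction that a gene then kept through D8, ALAS2, SLC25A38 and UROD came on D3, UROS, CPOX, PPOX and FECH on D5, and ALAD, together with the lower ALAS1, on D7. The call day also reflects the error of each gene, since on D3 and D4 the fold changes of FECH and CPOX were no smaller than those of UROD. The day on which log2 normalized CPM passed the midpoint between D0 and its extreme gave a second order, which has no test and depends on the scale. For UROD this was day 3.06 in set A and 4.66 in set B, for CPOX 3.93 and 4.94, for UROS 5.41 and 6.14, and for ALAD 6.14 and 6.50. The 2 sets of UROD and CPOX overlapped in these days, while on the log2 scale both values of ALAD were later than both of UROD and of CPOX. PPOX passed its midpoint on day 6.06 and 4.87. ALAS2 (4.37 and 6.59), FECH (6.29 and 6.38) and SLC25A38 (3.00 and 6.25) reached their extreme on D12, so their midpoints depend on that day. With D12 left out they were 3.09 and 4.53, 3.62 and 5.34, and 2.40 and 2.56. By that measure SLC25A38 was the earliest of the 9 in both sets. On linear normalized CPM, from the mean of the libraries, UROD (6.05), CPOX (6.23), UROS (6.23), PPOX (6.27) and SLC25A38 (6.43) lay within a fraction of a day of each other, and ALAD, at 6.14 to 6.50 under all settings tried, was not apart from them. FECH (8.28) and ALAS2 (8.71) were then the latest of the genes that rose.

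From one day to the next few steps were large enough to be called by edgeR's quasi-likelihood test. No member was called from D1 to D2 (0.00596% of all genes in either direction), from D2 to D3 (0.0298%), from D3 to D4 (0.00%), from D4 to D5 (0.00%), from D5 to D6 (0.00%) or from D7 to D8 (0.00%). At an unadjusted p under 0.05 there was 1 member from D1 to D2, beside 504 of all 16784 genes. From D2 to D3 there was 1, beside 508 genes, and in the other 4 steps none, beside 92 to 217 genes. DESeq2 and limma called none in these steps, and edgeR's exact test called 1, from D2 to D3. From D6 to D7, the first day after SCF was left out, UROS (0.95, SE 0.197), PPOX (0.72, SE 0.145) and UROD (0.58, SE 0.123) were called higher, beside 0.882% of all genes. ALAD (1.21, adjusted p = 0.106) and ALAS2 (1.07, adjusted p = 0.0726) had larger values that did not pass. All 9 members moved the same way in both sets, and with library set as a block 7 were called, with DESeq2 5 and with edgeR's exact test 6. The 0.882% is not the share for these fits, whose shares of all genes called are not given here. None of the 3 calls was kept without the D7 and D8 libraries of set A, without the D6 library of set B, or without the D7 library of either set, and limma on log2(TPM + 1) made none. D7 of set A also comes from another table than D6 of set A, and table and day cannot be told apart in that set.

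Between D8 and D12 the members split on the TMM scale. ALAS2 (log2 fold change 1.25, SE 0.300, adjusted p = 0.00278), FECH (0.88, SE 0.265, adjusted p = 0.0113) and SLC25A38 (0.52, SE 0.143, adjusted p = 0.00692) were called higher, when 23.8% of all genes were. UROS (-1.91, SE 0.203, adjusted p = 2.69e-06), ALAD (-1.12, SE 0.386, adjusted p = 0.0233), CPOX (-0.83, SE 0.301, adjusted p = 0.0301), PPOX (-0.75, SE 0.145, adjusted p = 0.000581) and UROD (-0.40, SE 0.123, adjusted p = 0.0126) were called lower, when 33.4% of all genes were. ALAS1 did not differ beyond its error (-0.03, adjusted p = 0.960). The median of all genes tested was itself -0.20. In set A D12 comes from another table than D0 and D8, and table and day cannot be told apart there. Without the D8 library of set B, or the D12 library of set B, 5 of the 8 calls were left, and without the D7 and D8 libraries of set A those of ALAD, CPOX and FECH were lost (adjusted p = 0.0549, 0.130 and 0.0646).

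The direction of the 3 higher genes turned with the scale. In TPM ALAS2 was 0.798 and 0.964 times its D8 level on D12, FECH 0.929 and 0.486 times, and SLC25A38 0.574 and 0.487 times. Limma on log2(TPM + 1) gave -0.19 for ALAS2 (adjusted p = 0.595), -0.57 for FECH (adjusted p = 0.140) and -0.90 for SLC25A38 (adjusted p = 5.80e-06), and on that scale the median of all genes was -0.68. ALAS1 was called lower there (-1.28, adjusted p = 0.000540). The D12 libraries had TMM factors of 0.544 and 0.464 against 0.805 to 1.17 on the other days, beside their large globin share. The 5 lower genes were lower on both scales. UROS fell from 227 and 226 TPM on D8 to 24.7 and 23.1 TPM on D12, CPOX from 385 and 388 TPM to 111 and 51.6 TPM, PPOX from 149 and 168 TPM to 34.5 and 30.1 TPM, UROD from 784 and 920 TPM to 269 and 205 TPM, and ALAD from 135 and 182 TPM to 36.2 and 19.0 TPM. In each of these genes both D12 libraries were below both D0 libraries in TPM. In bulk samples fewer cells of a type and less RNA per cell cannot be told apart.

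**Figure D4:**
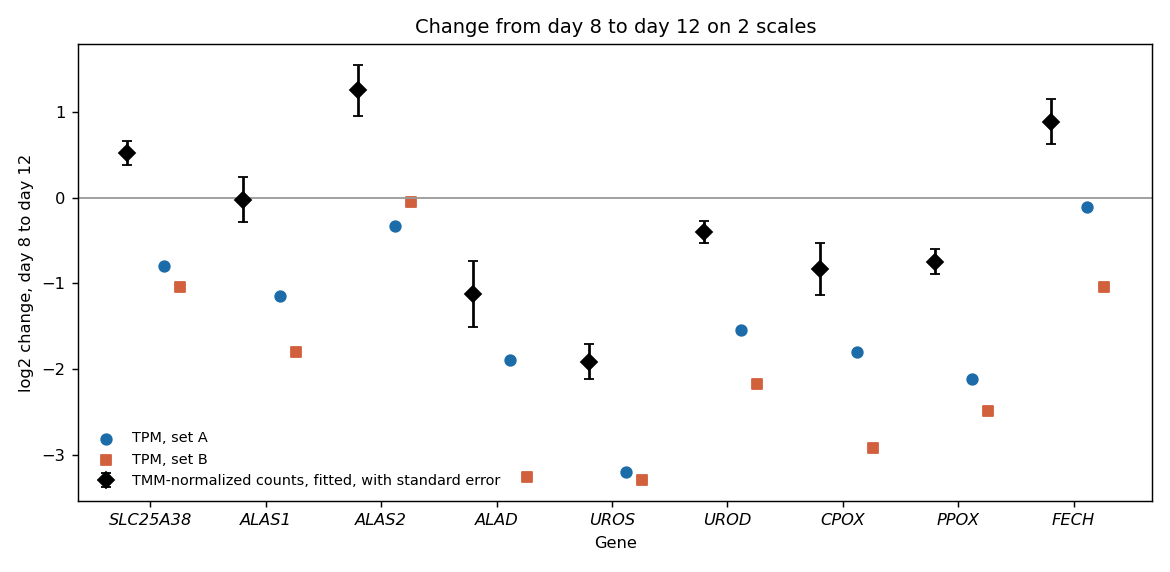
Change of each gene from D8 to D12 on a log2 scale, as fitted from TMM-normalized counts (diamonds, bars are the standard error) and as the ratio of TPM in set A (circles) and set B (squares). ALAS2, FECH and SLC25A38 lie above 0 in normalized counts and below 0 in TPM, while UROS, ALAD, CPOX, PPOX and UROD lie below 0 on both.

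Against D0 the same caution applies to D12. On the TMM scale ALAS2 (4.39), FECH (2.75), SLC25A38 (1.68), CPOX (1.13), UROD (1.02) and PPOX (0.61) were called higher and ALAS1 (-0.90) lower, beside 29.7% of all genes higher and 38.5% lower, with a median of all genes of -0.29. ALAD (0.28, adjusted p = 0.525) and UROS (0.15, adjusted p = 0.505) were not called. CPOX lost its call without the D12 library of set A (0.73, adjusted p = 0.0669). On log2(TPM + 1) ALAS2 was still called higher (2.38), FECH was not called (0.70, adjusted p = 0.0622), and CPOX (-0.99), UROD (-1.04), PPOX (-1.58), SLC25A38 (-0.37), UROS (-1.69), ALAD (-1.70) and ALAS1 (-2.69) were called lower. ALAS2 was thus higher and ALAS1 lower than on D0 on both scales.

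Levels could be ranked within a day in TPM. On D0 UROD was highest (485 ± 43.4 TPM, mean ± SD, n = 2) and ALAS2 next (277 ± 105 TPM), and the 2 did not overlap. ALAS2 led from D4, where it still overlapped UROD, and did so without overlap from D5. On D8 the order was ALAS2, UROD, CPOX, UROS, FECH, PPOX, ALAD, SLC25A38 and ALAS1, and only PPOX and ALAD overlapped among neighbours. ALAS2 made up 16.9% and 23.3% of the summed TPM of the 9 genes on D0, 47.0% and 39.8% on D8, and 66.7% and 74.5% on D12. The sum went from 1199 and 1506 TPM on D0 to 3666 and 3658 TPM on D8 and 2064 and 1884 TPM on D12.

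Transcripts were described where they held at least 10% of the TPM of their gene in both libraries of a day. This was so for 26 of the 104 transcripts of these genes. A transcript could enter through the days on which its share was high. Counts of calls among the 26 are therefore not independent of this limit. StringTie divides reads among overlapping transcripts, so shares are estimates. On D8 against D0, 11 of the 26 were called higher and none lower, beside 0.914% of all 75285 transcripts tested called higher and 1.13% lower. The 11 were all 3 of ALAS2, 3 of FECH, 2 of UROS and 1 each of UROD, CPOX and PPOX. From D8 to D12, 6 were called lower and none higher, beside 11.4% and 2.85%, and they were 2 of PPOX and 1 each of ALAD, UROS, UROD and CPOX. DESeq2 also called ALAS2 transcripts NM_000032 and NM_001037967 higher from D8 to D12 (adjusted p = 0.0177 and 0.0131). Another setting than the main fit also called NM_000140 of FECH, XM_024447449 of ALAD and NR_036510 of UROD higher on D8. The same was so for XR_002957010 of UROS, called lower from D8 to D12. Both counts therefore depend on the setting. Without the filter on low counts XR_002957010 of UROS and NM_001012515 of FECH lost their D8 calls (adjusted p = 0.0580 and 0.0521). No ALAS1 or SLC25A38 transcript was called in either comparison.

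Shares within UROS and UROD differed between days. Both UROS transcripts called on D8 are non-coding. XR_002957010 held 5.34% and 11.1% of UROS TPM on D0 and 27.2% and 23.7% on D8, and NR_136676 held 7.59% and 9.41%, then 19.1% and 17.1%. The D0 and D8 shares did not overlap for either. XR_002957010 met the 10% limit only on D7 and D8, so it was described because its share was high then. Its higher share and its call on D8 are thus not separate from that choice. The coding NM_000375 held 7.94% and 4.92%, then 5.07% and 5.63%, and was not called (adjusted p = 0.604). Its libraries were far apart on D2 (1.26% and 24.4%), D5 (26.3% and 3.80%) and D12 (5.04% and 44.2%). On D12 XR_002957010 held 33.6% and 5.42%, and NR_136676 held 15.6% and 10.7%. Most UROS TPM on D0, and much of it on D8, lay in others of the 21 UROS transcripts, which did not meet the limit. These shares therefore do not give the coding and non-coding parts of UROS, or of its rise. The UROD coding transcript NM_000374 (chr1:45012254-45015575, plus strand) held 73.5% and 73.4% of UROD TPM on D0, 60.6% and 62.3% on D8, and 57.0% and 36.8% on D12. Of these days its share was highest in both D0 libraries, and the D12 libraries were apart from each other. The non-coding transcript NR_036510 from the same locus held 10.5% and 6.58%, 17.4% and 9.93%, and 24.1% and 40.6% on those days. It met the 10% limit only on D7 and D12. The coding transcript was called higher on D8 (1.06, SE 0.209, adjusted p = 0.0211) and lower on D12 against D8 (-1.12, SE 0.210, adjusted p = 0.00280). The non-coding one stood at 2.02 (adjusted p = 0.0953) and 0.47 (adjusted p = 0.638). Its D8 value was the larger of the pair. Other settings gave the non-coding transcript 1.94 to 2.01 on D8, and it was called under another setting. The difference between the transcripts was not tested.

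For ALAS2 the longest transcript, NM_000032 (1940 bases), held 59.1% and 57.1% of TPM on D0, 49.0% and 50.4% on D8, and 48.1% and 48.2% on D12. NM_001037967 (1829 bases) held 29.3% and 32.1%, 34.8% and 36.5%, and 36.7% and 39.9%. The shares of D0 and D8 did not overlap for either transcript, and both were called higher on D8, at 2.84 and 3.26. XM_006713214 of SLC25A38 held 8.07% and 45.9% on D1 and 17.9% and 49.6% on D8, so its libraries of a day were farther apart than the D0 and D12 groups. PPOX and CPOX loci overlap other annotated genes, on the opposite strand for PPOX and on the same strand for CPOX, and how the counting used strand is not given in the sources used here.

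Other genes around the pathway were taken from 3 lists. Of 12 genes for substrate supply and porphyrin transport, 6 were called higher and 2 lower on D8 against D0, with a median log2 fold change of 0.56. Of all genes 17.7% were called higher and 19.4% lower on that day, and the median was 0. SLC6A9, the glycine transporter GlyT1 of the plasma membrane, went from 5.70 and 8.42 TPM to 186 and 124 TPM (5.05, SE 0.418, adjusted p = 2.37e-06). SLC25A39, a mitochondrial carrier that brings in glutathione, rose by 3.03 (SE 0.266), TSPO2, an erythroid relative of the translocator protein TSPO, by 2.66 (SE 0.430), and ABCB10, a transporter of the inner mitochondrial membrane, by 1.42 (SE 0.224). SUCLG2 (-1.27, SE 0.277) and SUCLA2 (-0.65, SE 0.195), subunits of the succinyl-CoA synthetases, were the 2 called lower. Without the D7 and D8 libraries of set A both lost their calls (-0.90, adjusted p = 0.0541 and -0.39, adjusted p = 0.248).

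Of 10 genes for iron delivery to mitochondria and iron-sulfur clusters, 4 were called higher and 3 lower, beside 17.7% and 19.4% of all genes, with a median of -0.02. The iron importer SLC25A37 (mitoferrin-1) went from 335 and 385 TPM to 2134 and 1719 TPM (3.00, SE 0.339, adjusted p = 2.76e-05), and its paralog SLC25A28 rose by 0.83 (SE 0.177). GLRX5, a glutaredoxin that passes on iron-sulfur clusters, rose by 1.51 (SE 0.258). ISCU, the scaffold on which the clusters are built, was just past the threshold (0.64, SE 0.239, adjusted p = 0.0492), and it was not called without the D7 and D8 libraries of set A (0.23, adjusted p = 0.502) or without either D0 library (adjusted p = 0.0550 and 0.285). The cochaperone HSCB (-1.52, SE 0.267), the iron regulatory protein ACO1 (-0.73, SE 0.186) and the assembly factor LYRM4 (-0.65, SE 0.146) were called lower. ACO1 lost its call without the D7 and D8 libraries of set A (adjusted p = 0.129). On log2(TPM + 1) SLC25A28 was not called (0.23, adjusted p = 0.137), and ISCU, also not called, turned to -0.01 (adjusted p = 0.977). With only the D0 and D8 libraries in the fit, 4 of the 10 were called.

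Of 14 genes for heme export, breakdown, use and sensing, 13 could be tested, FLVCR2 being below the filter. On D8, 7 were called higher and 5 lower, beside 17.7% and 19.4% of all genes, with a median of 0.47. HMOX1, the inducible heme oxygenase, went from 8.32 and 6.03 TPM to 122 and 20.4 TPM, and to 582 and 507 TPM on D12 (D8 against D0 4.0, SE 0.771, adjusted p = 0.00139). The 2 libraries of D8 were far apart for HMOX1, with 4.56 in set A and 2.25 in set B. Without the D7 and D8 libraries of set A the change was 1.99 (adjusted p = 0.00520). Its constitutive relative HMOX2 was lower (-2.35, SE 0.258, adjusted p = 2.20e-05). BLVRB, a biliverdin reductase, rose by 2.05 (SE 0.163), SLC48A1, the heme importer HRG1 of endosomes, by 2.01 (SE 0.204), and ABCG2, a plasma membrane exporter of porphyrins, by 1.95 (SE 0.332). COX10 (-1.29, SE 0.201), which makes heme O for cytochrome c oxidase, HEBP1 (-1.27, SE 0.431), a heme-binding protein, and FLVCR1 (-1.01, SE 0.285) were called lower. HEBP1 was at -1.89 in set A and -0.88 in set B, and from -1.97 to -0.80 without single libraries. HEBP1 and FLVCR1 lost their calls without the D7 and D8 libraries of set A (adjusted p = 0.253 and 0.179).

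**Figure D5:**
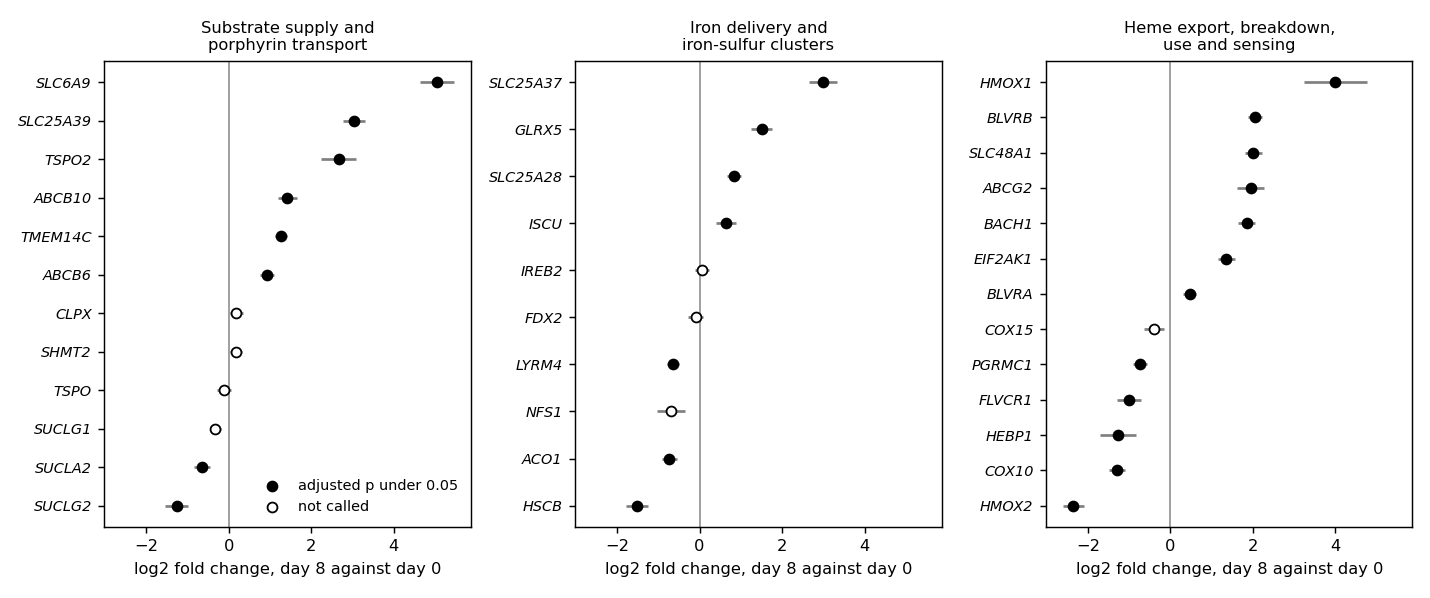
log2 fold change on D8 against D0 (horizontal axes) of the genes tested in the 3 lists, from TMM-normalized counts with standard errors as bars. Filled points had an adjusted p under 0.05 and open points did not, and SLC6A9 (5.05), HMOX1 (4.0), SLC25A39 (3.03) and SLC25A37 (3.00) lie farthest to the right.

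Genes of like pattern were sought by Pearson's r of log2 normalized CPM over the 10 days in each set, taking the lower of the 2 values among 8539 other genes with a mean of at least 10 CPM. The days form a single course with shared libraries, so r is a description. Nearest to ALAS2 were ZCCHC8 (0.991), ZFYVE21 (0.991), TSPAN5 (0.990), FHDC1 (0.990) and GTPBP1 (0.987). TSPAN5, a tetraspanin, was at 0.38 and 1.38 TPM on D0 and 49.8 and 31.7 TPM on D8. Nearest to ALAS1 were DIP2B (0.923), CLIC1 (0.918), TIMMDC1 (0.917), GK (0.904) and CAPZB (0.900). GK, the glycerol kinase, was at 7.48 and 6.30 TPM on D0, 18.6 and 8.31 TPM on D1, and 2.13 and 2.33 TPM on D8. It was highest on D1 among these days, but it was picked for its likeness to ALAS1. Among the members FECH (0.970 and 0.992) and SLC25A38 (0.984 and 0.977) followed ALAS2 most closely, and every other member had a negative r with ALAS1 in both sets, from -0.54 to -0.90.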

How the data were processed

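The submitters' processing notes name Trimmomatic 0.38 for trimming, HISAT2 2.1.0 for alignment, StringTie 2.1.3b and the build hg38. The authors deposited 4 tables of 170322 RefSeq transcripts. The deposited counts are whole numbers without normalization, and the deposited TPM are scaled by the authors for transcript length and library total. Of their columns of library values 40 were taken and 23 were left aside (FPKM, and the D0 counts and TPM of the table that holds D12 of set A, which differ from the D0 columns taken and may be those of a labelled D0 sample). Replicate numbers are absent from the column names. Transcripts were summed by symbol. The 2 libraries of a day differed by more than sampling noise in 65.3% to 78.0% of genes with at least 20 counts, so none is a copy.

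All 20 libraries were fitted together in edgeR 4.0.16 (filterByExpr, TMM, glmQLFit, glmQLFTest) under R 4.3.3, with a coefficient for each day and Benjamini-Hochberg adjustment over all genes or transcripts tested, threshold 0.05. Standard errors were taken from the F statistic and the size of each fold change. The study names edgeR's exact test, tried here as an alternative beside DESeq2 1.42.0 and limma 3.58.1 on log2(TPM + 1) and log2(TPM + 0.1), other normalizations and filters, and each library left out. A count of 0 allows up to 3 counts, 0.0426 to 0.0575 CPM. On simulated data with 4-fold changes the test recovered 95.5% of changed genes for D8 against D0 (15788 genes) and 96.4% for D12 against D8 (15799 genes), with 5.50% and 5.03% of calls false. The simulation gave all genes the same dispersion and, apart from 198 and 196 changed genes, constant means over days. Many more genes were called in the data, so these rates need not hold for them.

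Members, lists and tests were chosen with earlier results of these data known. The text names every member, up to 4 called genes with the largest increase and 4 with the largest decrease on D8 from each list, the 5 genes nearest in pattern to ALAS2 and to ALAS1, and cell type markers. Some listed genes are not reported here and were left out of the counts. Promoter sequences are from RefSeq (8 of 9 members matched) and transcripts from GENCODE.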

Additional observations from a re-analysis of the deposited data

How the results depend on the processing

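No paired analysis was possible because the columns carry no replicate numbers, so a block could be set only by library set (A against B). This block does not account for the 3 tables joined in set A. The number of members called against D0 moved by over 1.5 times with some settings up to D6. The shares of all genes called under the other settings are not given, so these counts have no background beside them. On D1 (1 called) it was 2 with DESeq2 and with library set as a block, 0 with only the 2 days in the fit, and 0 to 1 without single libraries. On D2 (0 called) it was 3 with DESeq2, 1 with edgeR's exact test, 1 with limma on log2(TPM + 1) and 2 with the block. On D3 (3 called) it was 0 with only the 2 days, 5 with the block and 0 to 3 without single libraries. On D4 (3 called) it was 5 with DESeq2 and the exact test, 7 with the block and 1 to 3 without single libraries. On D5 and D6 (7 called) it was 4 and 3 with only the 2 days, 4 with limma on TPM with either pseudocount, and 3 to 5 and 3 to 6 without single libraries. On D7 and D8 it was 8 or 9 under every other setting, and 7 to 8 and 7 to 9 without single libraries. On D12 (7 called) it was 7 or 8, and 6 to 7 without single libraries. From D2 to D3 the exact test called 1, and from D1 to D2 leaving out single libraries gave 0 to 1. From D6 to D7 (3 called) DESeq2 called 5, the exact test 6 and the block 7, while only the 2 days, limma and the fit without the D7 and D8 libraries of set A called 0, and leaving out single libraries gave 0 to 2. From D8 to D12 (8 called) it was 5 with only the 2 days and without the D7 and D8 libraries of set A, and 5 to 7 without single libraries. Of the iron list (7 called) 4 genes were called on D8 with only the 2 days in the fit.

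The ALAS2 to ALAS1 ratio on D12 was 267 in normalized CPM. Signs turned for these values. From D8 to D12 limma on log2(TPM + 1) and log2(TPM + 0.1) gave -0.19 and -0.19 for ALAS2, -0.57 and -0.57 for FECH, and -0.90 and -0.92 for SLC25A38. From D0 to D12 they gave -1.70 and -1.74 for ALAD, -1.69 and -1.73 for UROS, -1.04 and -1.04 for UROD, -0.99 and -1.0 for CPOX, -1.58 and -1.61 for PPOX, and -0.37 and -0.38 for SLC25A38. ALAD was at -0.25 there in set B alone, and from -0.0020 to 0.57 without single libraries. ALAD on D4, which was not called, was at 0.080 in set A alone and from -0.29 to 0.27 without single libraries. ALAS1 from D8 to D12, also not called, was at 0.12 with DESeq2, 0.036 with the exact test and with only the 2 days, 0.16 with upper-quartile normalization, 0.050 with at least 10 counts in every library, and from -0.12 to 0.029 without single libraries. ISCU on D8 against D0 was at -0.0106 and -0.0107 with limma on log2(TPM + 1) and log2(TPM + 0.1). The ALAS1 transcript NM_000688 was at 0.054 with DESeq2. The cause of these differences was not tested.

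With 2 libraries a day, single-library differences decide many calls before D7. Every library had at least 52131713 counts, and the lowest count of a member was 482. Of the midpoint days under other settings 17 moved by more than the spread between sets and 28 did not, with that of UROD going to 2.18 on log2(TPM + 1) and 6.05 on linear CPM.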
